A study of Mus musculus with 24 samples.

Results

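The comparison described here sets βTC3 cells from which doxycycline (DOX) had been removed against the same cells while DOX kept the miR-23b cluster switched on. It holds 6 of the 24 RNA-seq libraries of the series, chosen by their sample labels. Each of the 6 came from the line that carries the plasmid PB-31 with the miR-23b cluster. In 3 libraries the cells had received DOX at 2 µg/ml for 7 d (7 d DOX). In the other 3 they had received the same DOX for 7 d and then 7 d of DMEM without it (withdrawn). βTC3 is a mouse insulinoma line from the Rip-Tag2 model, in which the insulin promoter drives the SV40 large T antigen in beta cells, so both groups carry that transgene. The same line without DOX (3 libraries, 7 d in plain DMEM) and the miR-137 line, with PB-31 carrying miR-137 and the same 3 conditions, served for reference. The control line with PB-31 alone was not withdrawn. Loss of DOX, loss of the induced miRNAs and the added 7 d of culture therefore cannot be told apart within the miR-23b line, and the miR-137 line is the only other line in which they occurred together. The labels do not say whether each line is 1 clone or a pool.

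The miRNAs of the cluster, named miR-23b, miR-27b and miR-24, are cut from 1 primary transcript. A mature miRNA guides Argonaute proteins to messenger RNAs whose 3′ UTR pairs with its seed, bases 2 to 8, and such pairing usually lowers the level of the message. In beta cells, miRNAs are known to keep down some genes that mature cells hold at a low level, among them genes of lactate handling. Polyadenylated RNA libraries do not measure mature miRNAs, so the values below concern the precursor loci and the messenger RNAs.

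The mature miRNAs of the cluster whose matches were searched are shown because they define the gene groups at the end of these results. They are taken from RefSeq for GRCm38.p6, 5′ to 3′, with the seed in capitals. miR-23b-3p is a further product of the cluster.
mmu-miR-27b-3p: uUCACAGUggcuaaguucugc
mmu-miR-24-3p: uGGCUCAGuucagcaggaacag
The mature miR-27b-3p lies on chromosome 13 at 63300760 to 63300780 and miR-24-3p at 63301251 to 63301272, both on the plus strand. Their seeds differ, so they define separate groups of matching messages.

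The cluster's loci were nearly empty after withdrawal. Mir23b (ENSMUSG00000065599, chromosome 13, 63300484 to 63300557, GRCm38) stood at 56.2, 49.8 and 53.5 CPM (reads per 1000000 gene counts, here not otherwise scaled) in the 3 libraries with 7 d DOX. In the withdrawn libraries it stood at 0.0525, 0 and 0.0634 CPM, 2 counts in all. Every DOX library was thus far above every withdrawn one, and the ratio of the summed counts was 1354 (95% exact interval from counting error alone, 374 to 11182). Mir27b (63300712 to 63300784) held 5090 counts with DOX and 6 after withdrawal, a ratio of 726 (333 to 1980). Mir24-1 (63301208 to 63301275) held 6194 and 11 counts, a ratio of 482 (269 to 966). The withdrawn libraries lay below the no DOX libraries of the line at Mir27b (log2 difference -2.01, SE 0.57) and Mir24-1 (-1.54, SE 0.52), which rests on few counts in both groups. Mir23b had a log2 difference of -1.91 (SE 0.90) that did not pass the test. Without DOX the miR-23b line held 9 counts at Mir23b, 27 at Mir27b and 35 at Mir24-1. The control line without DOX held 2, 2 and 3, so the no DOX cells of the miR-23b line had some signal at these loci. The host gene 2010111I01Rik (62964893 to 63326096) stood at 18.1, 18.98 and 18.4 CPM with DOX and at 18.6, 20.3 and 15.1 CPM after withdrawal, and these ranges overlap. Mir3074-1, annotated on the minus strand over Mir24-1, had 27 counts with DOX and 10 after withdrawal and did not pass the test. The counts do not separate reads of the inserted copy from those of the endogenous cluster.

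The 6 libraries held 15775761 to 22287337 gene counts. The listed markers of beta cells were present in all 6, most of them at high levels. Slc2a2 was the lowest, at 1.62 to 9.70 CPM, and Mafa ranged from 61.3 to 145 CPM. Ins2, the main mouse insulin gene, ranged from 6803 to 10891 CPM, and the factors Pdx1, Nkx6-1 and Neurod1 each exceeded 189 CPM. Of the 8 listed fibroblast markers 1 was expressed enough to be tested, as was 1 of 8 leukocyte markers. Their summed levels overlapped between the groups, at 3.28 to 4.34 CPM with DOX and 2.79 to 4.15 CPM after withdrawal for fibroblasts, and at 2.90 to 4.34 against 3.42 to 3.78 CPM for leukocytes. Col3a1, Dcn, Adgre1 and Cd3e had 0 counts in all 6 libraries. Summed endothelial markers, mostly Plvap, were at 8.65 to 10.1 CPM with DOX and 7.24 to 7.61 CPM after withdrawal, and 1 of 3 tested was called, Vwf (-1.01, adjusted p = 0.0491). That call was lost when any 1 of 4 of the 6 libraries was left out (adjusted p 0.085 to 0.237). Summed exocrine and duct markers overlapped, at 8.28 to 10.4 CPM with DOX and 8.54 to 9.97 CPM after withdrawal, and 1 of 3 tested was called. That was Cela1, at 12 counts with DOX and 52 after withdrawal. Of the other members Cftr went from 310 to 268 counts, Muc1 from 187 to 122 and Spp1 from 24 to 3, with Amy2a5, Cpb1, Prss1 and Krt19 at 0.

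Withdrawal changed a large share of the transcriptome, mostly by small amounts. Of 14866 genes tested, 7760 (52.2%) differed between withdrawn and 7 d DOX cells at an adjusted p below 0.05 in edgeR's quasi-likelihood test. They divided into 3927 higher (26.4%) and 3833 lower (25.8%) after withdrawal. Changes of at least 2-fold were found in 663 genes (4.46%), 293 higher (1.97%) and 370 lower (2.49%). The median size of change among called genes was 0.30 on the log2 scale. In 57% of the genes tested the 3 withdrawn libraries did not overlap the 3 DOX libraries, so this separation alone was common. The balance between higher and lower depended on the scale. Of the called genes 50.6% were higher with TMM scaling, 41.5% when counts were scaled by library total alone, and 27.8% on the authors' TPM scale. On log2(TPM + 0.1) the median of all genes lay at -0.105, so small rises on the count scale do not all appear there. For that reason the members called higher and lower between withdrawn and 7 d DOX cells are given on both scales for each gene group described below, apart from the markers of other cell types. On log2(TPM + 1), 2125 of the 14866 genes tested were higher and 5514 lower. The list counts on that scale are to be read beside these numbers. Those on the count scale are to be read beside the 26.4% higher and 25.8% lower of all genes tested. The share of gene counts taken by Ins2 also moved, from 0.68% to 0.737% with DOX to 1.06% to 1.09% after withdrawal, and its part in the scale difference was not tested.

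**Figure D1:**
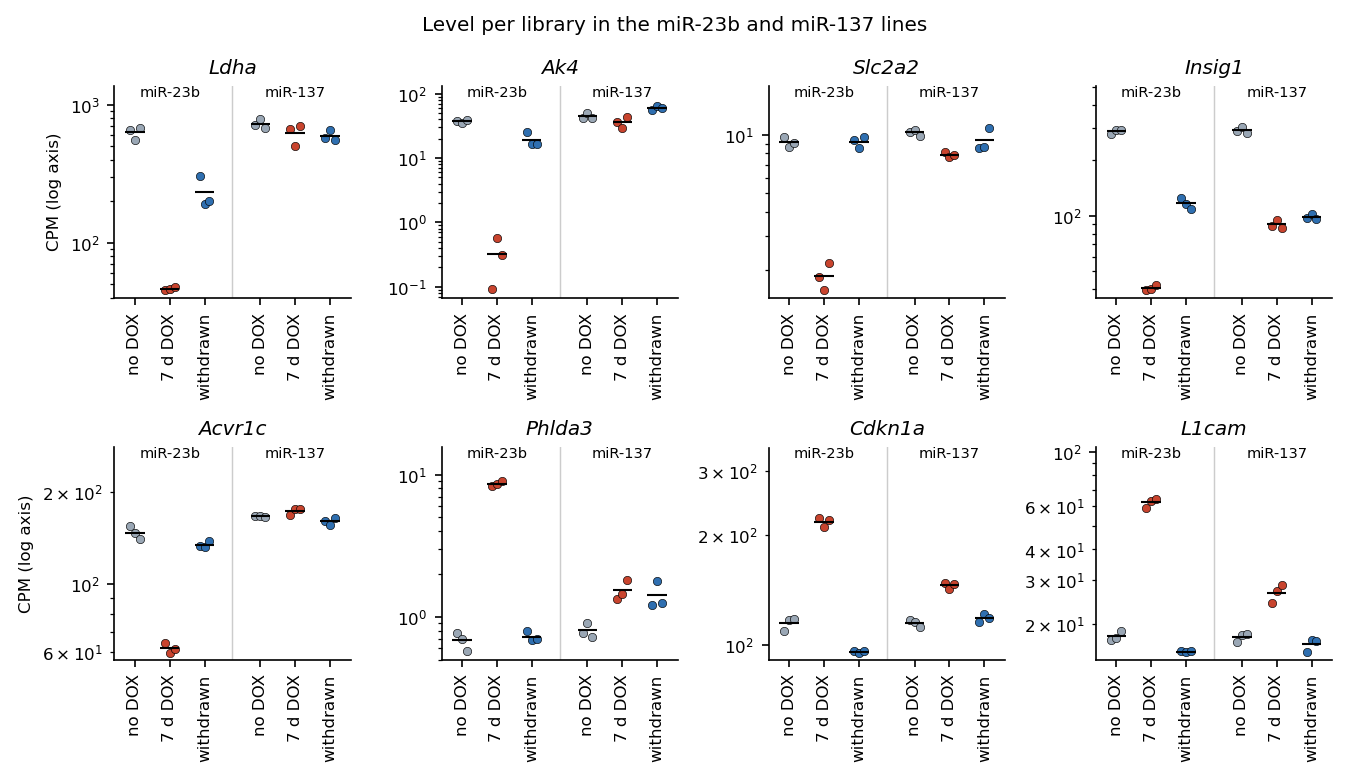
Level of 8 genes in each library of the miR-23b line (left in each panel) and the miR-137 line (right), in CPM on a log axis; points are libraries and bars are means of n = 3. In the miR-23b line Ldha, Ak4, Slc2a2, Insig1 and Acvr1c are lowest with 7 d DOX, and Phlda3, Cdkn1a and L1cam are highest there.

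Most of the listed glycolysis and hypoxia-inducible genes rose (24 of 35 tested), and so did the genes for lactate dehydrogenase and the lactate exporter, while the list of lactate and pyruvate handling genes as a whole went both ways. Ldha (ENSMUSG00000063229, chromosome 7, 46841475 to 46855627), which makes lactate from pyruvate, stood at 45.7, 46.2 and 47.6 CPM with DOX and at 304, 193 and 200 CPM after withdrawal. All withdrawn libraries were above all DOX libraries, as the rule for naming genes required. The difference was 5.02-fold on the fitted scale (log2 2.33, SE 0.14, n = 3 a group, edgeR adjusted p = 1.42e-16). Slc16a3, the lactate exporter MCT4, stood at 27.5, 27.4 and 32.8 CPM with DOX and at 118, 82.9 and 90.8 CPM after withdrawal (log2 1.76, SE 0.13). Pdk1, a kinase that restrains pyruvate entry into mitochondria, rose by 1.25 (SE 0.11). Ak4 (ENSMUSG00000028527, chromosome 4, 101419277 to 101466995), the adenylate kinase of the mitochondrial matrix, showed the largest rise among the named genes. Its level was 0.0913, 0.567 and 0.308 CPM with DOX and 24.9, 16.5 and 16.7 CPM after withdrawal (log2 5.88, SE 0.32, a 58.7-fold difference). The size is uncertain because the DOX libraries hold few Ak4 counts, and the log2 change was 6.69 without DOX replicate 2. Of its sister genes, Ak1 (-0.72) and Ak5 (-0.32) fell. Withdrawn replicate 1 was the highest of its group for Ldha, Slc16a3, Ak4 and Bnip3. Without it the log2 changes were 2.07, 1.58, 5.63 and 1.60.

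Across the list of glycolysis and hypoxia-inducible genes, 24 of 35 tested were higher and 4 lower, with a median log2 change of 0.52 against 0.00 for all genes tested. On the log2(TPM + 1) scale the counts were 22 and 5. The mitophagy receptor Bnip3 went from 21.8, 20.9 and 20.2 CPM to 83.5, 60.9 and 67.5 CPM (log2 1.76, SE 0.11). Ankrd37 (1.56), triose phosphate isomerase Tpi1 (1.15) and the fructose-2,6-bisphosphate enzyme Pfkfb3 (1.02) also rose at least 2-fold, while its relative Pfkfb4 fell (-0.48). Of the lactate and pyruvate handling genes 5 of 21 tested were higher and 7 lower (5 and 11 on log2(TPM + 1)), with a median of -0.06, and the mitochondrial malic enzyme Me3 fell by 1.60. Reads aligned to more than 1 place are not in the gene counts. Levels of Ldha, Tpi1 and other genes with near-identical copies are therefore less certain than their errors.

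Most of these genes remained short of the level of cells of the line that had received no DOX. Ldha stood at 633 ± 64.6 CPM (SD, n = 3) in the line without DOX, and the withdrawn cells differed from that by -1.44 on the log2 scale (SE 0.12). Ak4 stood at 37.2 ± 2.19 CPM there and Slc16a3 at 173 ± 15.7 CPM. In the control line, where the cluster was not induced, Ldha stood at 758 ± 15.9 CPM without DOX and 550 ± 123 CPM with it. Of the glycolysis list, 21 of 35 were lower in withdrawn than in no DOX cells and 3 higher, where 39.8% of all genes were called in that comparison (19.2% higher and 20.6% lower). This comparison uses the same withdrawn libraries. The no DOX cultures also differ from the withdrawn ones in time in culture.

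Sterol synthesis genes rose as a group. Of 25 tested 22 were higher and 0 lower after withdrawal, with a median log2 change of 0.48, and 21 and 0 passed on the log2(TPM + 1) scale. Insig1, which holds the SREBP escort protein in the endoplasmic reticulum, went from 39.5, 39.8 and 42.1 CPM with DOX to 125, 116 and 109 CPM after withdrawal (log2 1.54, SE 0.05), with no overlap of the groups. Farnesyl diphosphate synthase Fdps (1.10) and Hmgcs1 (0.87) rose less. Against no DOX cells, 23 of the 25 were lower after withdrawal and 0 higher. Insig1 stood at 288 ± 7.44 CPM in those cells. Levels well below those without DOX also occurred where the cluster was not induced. Insig1 stood at 261 ± 6.54 CPM without and 91.2 ± 5.11 CPM with DOX in the control line. In the miR-137 line it stood at 293 ± 11.5 CPM without DOX, 89.8 ± 5.11 CPM with DOX and 98.0 ± 3.25 CPM after withdrawal. Fatty acid genes were mixed, with 12 of 21 higher and 4 lower (7 and 5 on log2(TPM + 1)). The desaturase Scd2 rose by 1.31 and Scd1 by 0.76, and Fads3 (-0.62) and Pnpla3 (-0.98) fell.

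Among beta cell genes 20 of 35 were higher and 5 lower, with a median of 0.16 (12 and 8 on log2(TPM + 1), and 19 and 8 with scaling by library total). The glucose transporter Slc2a2 (ENSMUSG00000027690, chromosome 3, 28697903 to 28731359) stood at 1.83, 1.57 and 2.16 CPM with DOX and at 9.34, 8.55 and 9.73 CPM after withdrawal (log2 2.34, SE 0.13). Its level without DOX was 9.13 ± 0.594 CPM, and the withdrawn cells did not differ from it beyond the spread (0.02, SE 0.10). The cation channel gene Trpm5 rose by 1.32 and the activin receptor gene Acvr1c, which encodes ALK7, by 1.13. Insulin genes rose as well. Ins1 went from 1064 to 2293 CPM by group mean (log2 1.11, SE 0.04) and Ins2 from 6839 to 10815 CPM (0.66, SE 0.03), in both cases above the no DOX cells. Ins1 and Ins2 share sequence, so their division of reads is uncertain. The prohormone convertase gene Pcsk1 fell by 0.65.

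Peptide hormone precursors mostly fell, 12 of 18 lower and 2 higher (12 and 1 on log2(TPM + 1)), with a median of -0.32. Cholecystokinin (Cck) went from 51.6, 71.7 and 61.3 CPM to 25.6, 26.3 and 29.5 CPM (-1.19, SE 0.10), secretin (Sct) fell by 0.86, and somatostatin (Sst) by 1.61 from a low level. Proglucagon (Gcg) rose by 0.74. Sst and Gcg also mark other islet cells, whose markers summed to 278 to 293 CPM with DOX and 345 to 373 CPM after withdrawal, nearly all of it Ttr and Gcg, and 2 of 4 tested rose and 2 fell. Genes of regulated exocytosis and synapses fell in 25 of 40 cases and rose in 8 (26 and 6 on log2(TPM + 1)), with a median of -0.30. The SNARE regulator Cplx1 (-1.35) and the stathmin gene Stmn2 (-1.15) were among them, while the neurofilament gene Nefm rose by 0.97. Both lists also fell on withdrawal in the miR-137 line. There 12 of the 18 hormone precursors were lower and 1 higher (median -0.37). Of the 40 exocytosis genes 23 were lower and 6 higher in that line, beside 14.8% and 14.7% of all genes tested. In bulk RNA, fewer cells of a type and less RNA per cell cannot be told apart.

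The list of p53 targets held the largest fall among the named genes outside the cluster itself. Phlda3 (ENSMUSG00000041801, chromosome 1, 135766119 to 135769136), an inhibitor of AKT that is known as a suppressor of pancreatic neuroendocrine tumours, stood at 8.31, 8.54 and 9.01 CPM with DOX. It stood at 0.791, 0.682 and 0.700 CPM after withdrawal, an 11.7-fold difference (log2 -3.55, SE 0.18, edgeR adjusted p = 6.01e-19). The line without DOX stood at 0.682 ± 0.103 CPM, and its difference from the withdrawn cells (log2 0.10, SE 0.33) did not pass the test. Eda2r, a receptor of the TNF family, went from 2.51, 2.4 and 1.91 CPM to 0.264, 0.186 and 0.382 CPM (-3.03, SE 0.29). The cell cycle inhibitor Cdkn1a (p21) went from 222, 211 and 220 CPM to 96.1, 94.8 and 96.2 CPM (-1.19, SE 0.03). Groups did not overlap for any of the 3, which the naming rule required of Phlda3. Tnfrsf10b and Pmaip1 (both -1.39) and Trp53inp1 (-1.10) completed the 6 members of the list that fell at least 2-fold. Of 35 members tested 17 were lower and 11 higher (19 and 7 on log2(TPM + 1)), with a median of -0.11, so the list did not move in 1 direction. The kinase gene Plk3 rose by 1.04.

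Cell cycle genes were higher on the count scale by small amounts. Of 40 DNA replication and G1/S genes 31 were higher and 3 lower (median 0.24), for example Mcm10 (0.57) and Gins2 (0.55), while E2f2 fell by 0.50. On log2(TPM + 1) the numbers were 20 and 7. Of 40 mitosis genes 28 were higher and 2 lower (median 0.15), with Aurka at 0.44. On log2(TPM + 1) they were 12 and 10, so the balance of calls in the mitosis list depends on the scale. The median of the list there was 0.01, against -0.08 for all genes tested. The balance also changed for nuclear oxidative phosphorylation genes, at 21 higher and 4 lower of 58 on counts and 3 and 18 on log2(TPM + 1). Mitochondrial ribosomal protein genes changed from 38 and 3 of 75 to 16 and 7, chaperones of the endoplasmic reticulum from 12 and 4 of 24 to 6 and 9, and ATF4 targets from 21 and 8 of 39 to 11 and 12. Antioxidant genes changed from 15 and 5 of 32 to 7 and 10.

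The other named falling genes were of mixed function. The adhesion molecule gene L1cam went from 58.8, 63.2 and 64.5 CPM to 15.4, 15.3 and 15.4 CPM (log2 -2.01, SE 0.07). The α-neurexin ligand gene Nxph4 (-2.13), the noncoding RNA Snhg11 (-2.02), the hyaluronan receptor gene Cd44 (-1.99), the cadherin gene Cdh6 (-1.97), the sulfotransferase gene Chst9 (-1.97) and the potassium channel genes Kcnh1 (-1.96) and Kcnc4 (-1.84) fell by about the same factor. All 9 falling genes outside the cluster loci had withdrawn libraries below DOX libraries, as the naming rule required. Of these 9, 6 did not differ from no DOX cells in the test and 3 were lower than them. Of the 12 named risers, 6 were below no DOX cells, 5 above and 1 without a call. Those above included Pdzk1, a scaffold of membrane carriers, at 22.2 ± 0.785 CPM against 4.27 ± 0.393 CPM without DOX. The hydroxyproline dehydrogenase gene Prodh2 was another, at 21.2 ± 1.57 against 8.35 ± 0.678 CPM. Levels above those without DOX also occurred where the cluster was not induced. The miR-137 line held Pdzk1 at 2.53 CPM without DOX, 10.3 with DOX and 10.8 after withdrawal, and Prodh2 at 7.23, 17.0 and 15.1 CPM. The control line held Pdzk1 at 2.11 CPM without and 5.50 with DOX, and Prodh2 at 5.12 and 8.19 CPM. The other named risers were the lactase gene Lct (2.01), the receptor gene F2rl1 (1.96), the glutathione peroxidase gene Gpx2 (1.89) and Meltf (1.88).

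Signalling lists went both ways. Immediate early genes, induced by calcium and growth signals, had 11 of 26 higher and 7 lower. Fos (1.74), Fosb (1.59), Egr2 (1.52) and Egr1 (1.36) rose, and Dusp6 fell by 1.94. On log2(TPM + 1) 8 were higher and 8 lower. Among TGF-β, activin and BMP genes, 17 of 36 fell and 9 rose (20 and 5 on log2(TPM + 1)), with the inhibitory Smad6 down by 2.57 and Smad3 up by 1.08. NOTCH genes had 7 of 30 higher and 9 lower, near the 26.4% and 25.8% of all genes tested, and 4 higher and 13 lower on log2(TPM + 1). The receptor Notch1 (1.06) and the ligand Dll4 (1.63, from 0.698 to 2.16 CPM) were among those higher. Among those lower was Dtx4, with a log2 change between -1.27 and -1.02 when 1 library was left out. Interferon and MHC class I genes had 21 of 41 higher and 5 lower (12 and 6 on log2(TPM + 1)), with Parp14 up by 1.44 and B2m down by 0.85. Of 11 mesenchymal genes 0 were higher and 5 lower (0 and 8 on log2(TPM + 1)), among them Vim (-2.05, from 1.91 to 0.458 CPM). Of 13 adhesion genes of epithelia 6 were higher and 2 lower (3 and 3 on log2(TPM + 1)). The E-cadherin gene Cdh1 rose by 1.3 on the log2 scale, to 5.61 CPM, and the tight junction genes Tjp3 (-0.91) and Cldn3 (-0.97) fell, both from low levels. Among genes of miRNA processing and silencing 6 of 25 were higher and 9 lower (4 and 11 on log2(TPM + 1)), beside 26.4% and 25.8% of all genes tested. The Argonaute gene Ago2 had a log2 change of -0.51 and the decapping enzyme gene Dcp2 of 0.59.

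**Figure D2:**
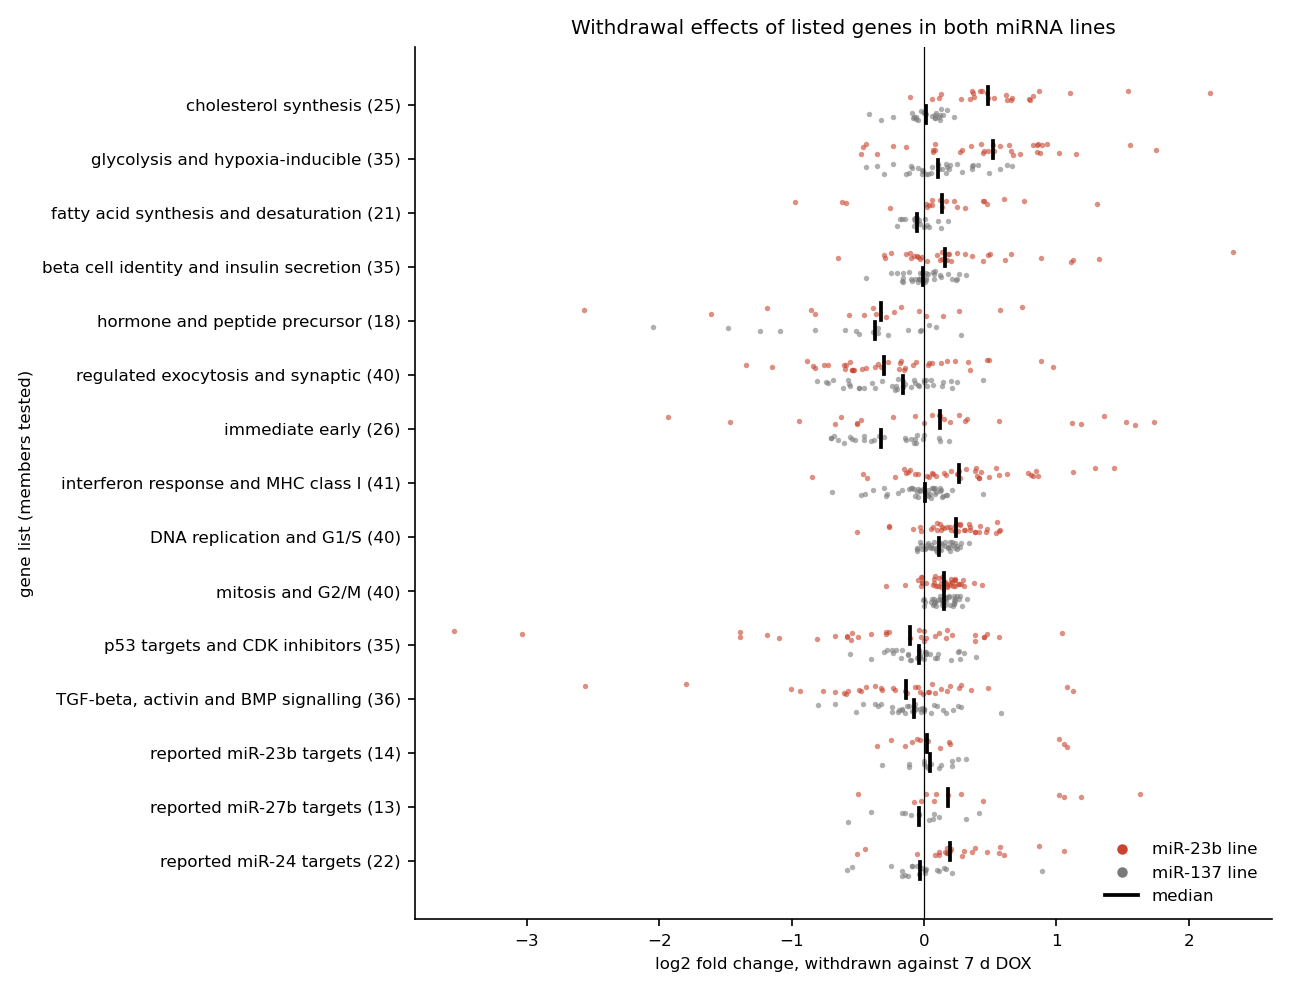
Log2 fold change of each tested member of 15 gene lists, withdrawn against 7 d DOX, in the miR-23b line (red) and the miR-137 line (grey); black bars are medians. The medians of the cholesterol list are 0.48 and 0.01 and those of the mitosis list 0.15 and 0.15.

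The miR-137 line went through the same removal of DOX, and the difference between the responses of both lines was tested directly. Of 14866 genes 5109 (34.4%) responded differently, 2630 more positively in the miR-23b line (17.7%) and 2479 more negatively (16.7%). Of the 663 genes that changed at least 2-fold in the miR-23b line, 65.8% were among them, a share that the choice of changed genes partly fixes, since both measures use the same libraries. In the miR-137 line itself 4386 genes (29.5%) were called, 134 of them at least 2-fold, and the median size over all genes was 0.12 against 0.20 in the miR-23b line. Ldha stood at 624 ± 104 CPM with DOX and 596 ± 54.2 CPM after withdrawal in the miR-137 line, so that the responses differed by 2.39 (SE 0.18). Ak4 differed by 5.16 (SE 0.37), Slc2a2 by 2.09, Insig1 by 1.42 and Acvr1c by 1.24. Phlda3 was 1.54 ± 0.258 and 1.42 ± 0.327 CPM there, a difference of responses of -3.44 (SE 0.30). Cdkn1a fell in both lines, by 1.19 and 0.30, and the difference of -0.89 (SE 0.05) also passed the test.

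Some changes appeared in both lines at sizes that the test did not separate. Gpx2 rose by 1.89 in the miR-23b line and by 1.56 in the miR-137 line, with a difference of 0.33 (SE 0.25). Sst fell by 1.61 and 1.48 (difference -0.13, SE 0.31), and the neurotensin gene Nts by 2.57 and 2.05 (-0.52, SE 0.79). Vim fell by 2.05 and 1.23 (-0.83, SE 0.36). By list, 21 of 25 cholesterol genes and 21 of 35 glycolysis genes responded more positively in the miR-23b line, with 0 and 4 more negative. For beta cell genes the counts were 18 and 2 of 35, and for p53 targets 6 and 16 of 35. Mitosis genes gave 7 and 7 of 40, exocytosis genes 10 and 11 of 40, and peptide hormone precursors 5 and 5 of 18. Of all genes tested 17.7% responded more positively and 16.7% more negatively.

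**Figure D3:**
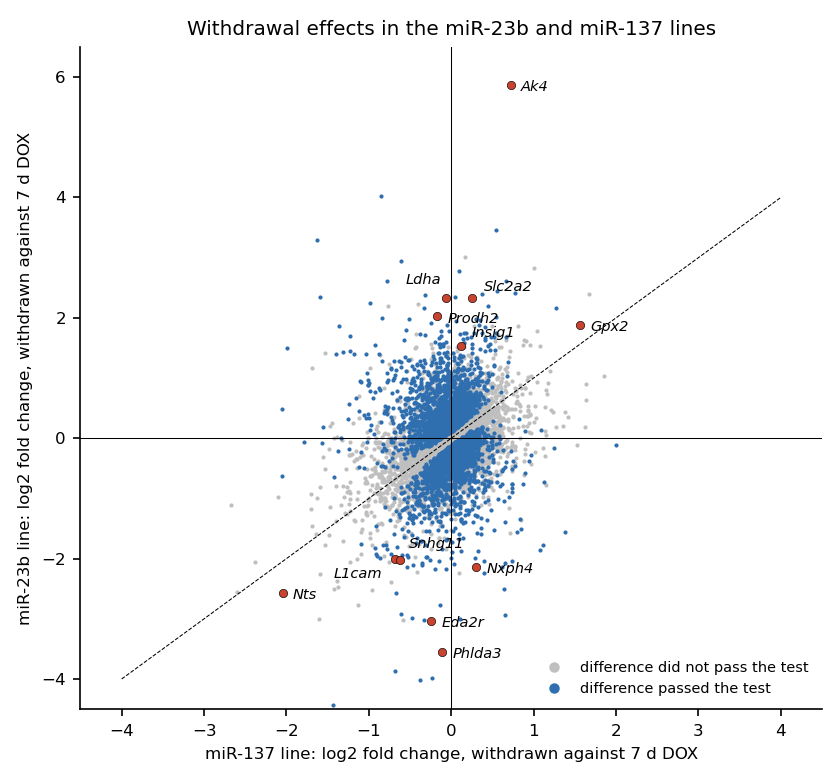
Log2 fold change, withdrawn against 7 d DOX, of 14858 genes in the miR-137 line (horizontal) and the miR-23b line (vertical), without the cluster loci; blue points passed the test of the difference, the dashed line marks equal responses, and red points are labelled genes. Ak4, Ldha, Insig1 and Phlda3 lie between -0.11 and 0.72 on the horizontal axis, while Gpx2 and Nts lie near the dashed line.

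Genes reported as targets of the 3 miRNAs, listed from general knowledge, were counted next. The lists were drawn up with earlier results of these data known, so their counts are a description and no independent test. For miR-24, 18 of 22 tested were higher after withdrawal and 1 lower, with a median of 0.20 (10 and 1 on log2(TPM + 1)). The kinase gene Cdk4 went from 230, 217 and 221 CPM to 348, 328 and 319 CPM (0.58, SE 0.03), and the histone variant gene H2afx rose by 0.87, while E2f2 was the member that fell. For miR-27b, 7 of 13 were higher and 1 lower (median 0.18; 5 and 2 on log2(TPM + 1)), with Dll4 (1.63), Pparg (1.19), Notch1 (1.06) and Fzd7 (1.02) at least 2-fold higher. For miR-23b, 6 of 14 were higher and 2 lower (median 0.02), and on log2(TPM + 1) 4 were higher and 4 lower, with Smad3 (1.08), Notch1 (1.06) and Fzd7 (1.02) leading. Notch1, at 55.8, 53.4 and 56.8 CPM with DOX and 111, 113 and 121 CPM after withdrawal, stands in all 3 lists.

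Genes were then grouped by seed matches in the longest annotated 3′ UTR (GENCODE M21). A match to bases 2 to 8 is ACTGTGA for miR-27b-3p and CTGAGCC for miR-24-3p, and an 8-mer is the same followed by A, searched on the transcript strand. Of 12974 tested genes with a 3′ UTR, 855 (6.59%) held an 8-mer of miR-27b-3p. In that group 36.1% were higher and 24.1% lower after withdrawal, with a median log2 change of 0.04. Of the 1159 genes with a miR-24-3p 8-mer (8.93%), 31.1% were higher and 26.7% lower (median 0.02). Among 8774 genes with no match of either, 27.0% were higher and 27.0% lower (median 0.00). Genes with a 7-mer but no 8-mer had 29.1% higher and 29.8% lower for miR-27b-3p, and 28.8% and 33.7% for miR-24-3p.

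The shift of the 8-mer genes is small beside the changes of single genes. The median of miR-27b-3p 8-mer genes minus that of genes with no match was 0.0439, 0.0552 and 0.0446 in the 3 withdrawn libraries, each set against the mean of the DOX libraries (0.0479 ± 0.00637, SD, n = 3). For miR-24-3p it was 0.00745, 0.0292 and 0.0135 (0.0167 ± 0.0112). In the miR-137 line the medians were -0.00059 for miR-27b-3p 8-mer genes, -0.0059 for miR-24-3p 8-mer genes and 0.01 for genes with no match. The 3′ UTRs also differ in length, with medians of 2567, 2532 and 856 bases in these groups, and the part of length in the result was not tested.

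The genes with an 8-mer that rose most under the naming rule are shown with the site, which sets a printed seed beside a measured change. They are not typical of the largest changes. An 8-mer was held by 0 of the 12 named risers, and by 3 of the 9 named falling genes outside the cluster loci. These were Kcnh1 for miR-27b-3p and Snhg11 and Cdh6 for miR-24-3p. Capitals mark the 8-mer, and the sequences are the transcript strand of GRCm38.
Uap1l1, miR-27b-3p: ggaagaggcaagaggACTGTGAA
Hpgds, miR-27b-3p: ttaaaatataaaagaACTGTGAA
Fosb, miR-27b-3p: gctggagcgctttatACTGTGAA
Parp14, miR-24-3p: tgggacacagcaccaCTGAGCCA
Padi2, miR-24-3p: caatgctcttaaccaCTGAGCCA
Acvr1c, miR-24-3p: tagttcgaaaaccacCTGAGCCA
The sites lie in annotated 3′ UTRs at chr2:25360179-25360201 (Uap1l1, minus strand), chr6:65118753-65118775 (Hpgds, minus), chr7:19303921-19303943 (Fosb, minus), chr16:35834301-35834323 (Parp14, minus), chr4:140951602-140951624 (Padi2, plus) and chr2:58274332-58274354 (Acvr1c, minus).

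Uap1l1, a relative of a UDP-N-acetylglucosamine pyrophosphorylase, stood at 35.3, 34.9 and 34.4 CPM with DOX and at 124, 122 and 105 CPM after withdrawal (log2 1.75, SE 0.06). The prostaglandin D synthase gene Hpgds went from 7.17, 8.63 and 8.08 CPM to 25.7, 25.9 and 24 CPM (1.66, SE 0.08). Acvr1c, which also holds 4 miR-27b-3p 8-mers in its 3′ UTR of 7465 bases, went from 64.1, 59.8 and 61.2 CPM to 134, 132 and 138 CPM (1.13, SE 0.04). No library of one group reached the range of the other for these 3 genes, as the naming rule required. Parp14 went from 5.43, 4.66 and 6.11 CPM to 14.5, 14.8 and 14.1 CPM, and the peptidylarginine deiminase gene Padi2 from 3.42, 2.62 and 3.64 CPM to 7.44, 8.12 and 6.43 CPM. In the control line, where the cluster was not induced, Uap1l1, Hpgds and Fosb also stood lower with DOX. Uap1l1 stood there at 267 CPM without and 87.6 CPM with DOX, Hpgds at 27.3 and 9.84 CPM and Fosb at 62.3 and 7.21 CPM. Parp14 (16.3 and 18.5 CPM), Padi2 (6.22 and 5.53 CPM) and Acvr1c (149 and 174 CPM) changed less there. What the sites contribute to these levels was not tested. Among the 6 genes with a printed site the difference from the miR-137 line's response ranged from 0.69 (Padi2) to 1.81 (Hpgds). These genes were chosen for their rise in the miR-23b line, which that difference contains, so its direction was largely fixed by the choice. A match is a description of letters in the annotation and not a measured binding site.

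**Figure D4:**
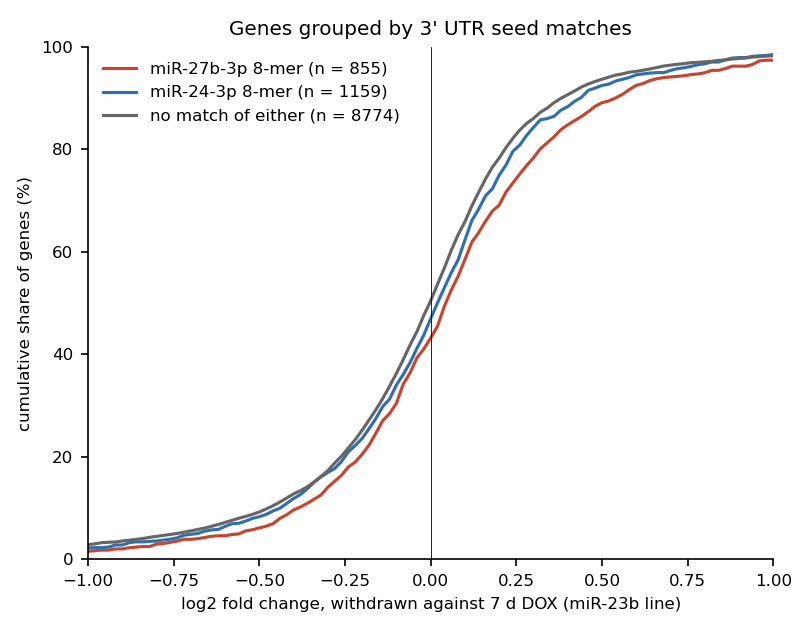
Cumulative share of genes (percent, vertical) by log2 fold change, withdrawn against 7 d DOX in the miR-23b line (horizontal), for genes with a miR-27b-3p 8-mer, a miR-24-3p 8-mer or no match of either. The curve of miR-27b-3p 8-mer genes lies to the right of the curve without a match, with medians of 0.04 and 0.00.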

How the data were processed

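Polyadenylated RNA was sequenced from 24 βTC3 cultures in 8 groups of 3, per the labels' protocols with a stranded TruSeq kit. The authors deposited raw read counts per gene, without normalization, and a table of TPM (scaled by the authors per library and gene length), whose columns sum to 999999.3 to 1000001.3. Builds GRCm38 and mm10 are named in the submitters' processing notes, as are featureCounts, RSEM 1.2.19, HTSeq 0.6.1, STAR 2.4.0g and cutadapt 1.3. The strand setting, and the tool behind each table, are not stated there.

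From the counts, 14866 genes kept by filterByExpr were scaled by TMM and fitted in edgeR 4.0.16 (R 4.3.3) with 8 group means over all 24 libraries (15759849 to 24144737 gene counts). Levels are CPM of TMM-scaled library sizes, except for the cluster loci, the ranges of beta cell markers and the summed markers, which were scaled by library total alone. Genes passed at a Benjamini-Hochberg adjusted p below 0.05 in the quasi-likelihood F test. SE was derived from the log2 fold change and its F statistic (their ratio after taking the root of F), and is too small where a group has few counts. Cultures were plated in triplicate, and p-values measure only the spread between them, which may be technical. Intervals and ratios of counts cover counting error only.

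Named genes were the 12 rising and 12 falling genes of largest fold change, with adjusted p below 0.05, at least 5 CPM in the higher group, no overlap and a proper symbol. The difference between lines named 6 in each direction, each list up to 4 called members and the largest opposite one, and each seed group 3 genes. Not every gene so selected is described, a few are not reported here, and a few list members beside them (such as Egr1, Cdkn1a, Trp53inp1 and Ins2) were added after their values were seen. The members and the 34 lists were chosen with earlier results of these data known. Matches of miR-23b-3p were not analysed here. The fit was tested on simulated counts in which few genes changed, in both directions. They do not cover a comparison in which 52.2% of genes are called, nor the choice of scale. Alternatives were DESeq2 1.42.0, other scaling and filters, fewer groups, a replicate block, leaving out each library, and limma 3.58.1 on log2(TPM + 1) and log2(TPM + 0.1).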

Additional observations from a re-analysis of the deposited data

Results flagged for a closer look

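The genes named for the difference between the withdrawal responses of the miR-23b and miR-137 lines were singled out because the difference itself passed edgeR's quasi-likelihood test. More positive in the miR-23b line were Ak4 (difference of log2 fold changes 5.16), Muc2 (2.92), Ldha (2.39), Lgals2 (2.20) and Prodh2 (2.19). Muc2, which encodes a secreted mucin, held 0.171 CPM with DOX in the miR-23b line, and its difference did not pass on the log2(TPM + 1) scale (adjusted p = 0.121). Lgals2, a galectin gene, rose in the miR-23b line by 1.63 and fell in the miR-137 line by 0.57. More negative were Mir24-1 (-9.91), Mir27b (-7.54), Phlda3 (-3.44), Nxph4 (-2.43), Vwde (-2.04) and Kcnc4 (-1.73). The values of Mir24-1 and Mir27b rest on at most 8 counts a group in the miR-137 line and set no bound. Mir27b lost its call without miR-137 withdrawn replicate 3 (-5.86, adjusted p = 0.957).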

How the results depend on the processing

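The counts of genes called did not move by over 1.5 times with DESeq2, scaling by library total, another filter on low counts or only the groups compared. With a replicate block the comparison of withdrawn with 7 d DOX cells gave 3938 higher and 3839 lower. Same-numbered libraries did not deviate together (correlations 0.041, -0.055 and 0.031), so the numbers were not read as a pairing, and Vwf was the 1 named gene that lost its call under the block. On log2(TPM + 1) 2125 genes were higher, and on log2(TPM + 0.1) 2155. At least 2-fold higher were 45 and 115, and 90 were at least 2-fold lower on log2(TPM + 1), where the pseudocount shrinks low genes. More positive in the miR-23b line were 1472 and 1466 genes on these scales. For each of these TPM results, apart from the pseudocount, the cause was not tested.

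Leaving out 1 library at a time gave 3388 to 3792 genes higher, 3473 to 3599 lower, 278 to 318 at least 2-fold higher and 363 to 396 at least 2-fold lower. The difference between lines gave 2349 to 2661 and 2071 to 2360, and withdrawn against no DOX 2330 to 2735 and 2630 to 2757. The 8-mer shifts per library given above came from logged CPM. Taken from the fitted log2 changes they were 0.0478 for miR-27b-3p and 0.0228 for miR-24-3p. With 1 library left out, the fitted miR-27b-3p shift ranged from 0.0411 to 0.0557 and the miR-24-3p shift from 0.0182 to 0.0277. Without a filter on low counts the shifts were 0.00963 and 0, since genes with 0 counts in both groups enter with no change. On log2(TPM + 0.1) they were 0.0651 and 0.0363, and for genes of at least 5 CPM the miR-27b-3p shift was 0.0384. The TPM table lists the 3 cluster loci at 0, so they have no value there. No named gene changed sign under the alternatives, but some lost their call. Of the results for named genes 8 did so on log2(TPM + 1), 7 on log2(TPM + 0.1), 3 with DESeq2 and 2 without a filter on low counts. Across the fits that left out 1 library, 16 such results lost the call and 974 kept their label. Genes with few counts limit the sizes for Ak4, Muc2 and the cluster loci.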

Other observations

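Some listed genes stood, after withdrawal, beyond both other conditions of the miR-23b line. Ins2 lay at 10815 CPM after withdrawal, 6839 with DOX and 7839 without DOX. Gcg lay at 62.0, 36.9 and 21.2 CPM in the same order, Trpm5 at 59.3, 23.9 and 43.8 CPM, and the membrane protein gene Prom1 at 47.3, 14.7 and 34.5 CPM. The complexin gene Cplx1 lay below both, at 2.85, 7.31 and 7.24 CPM, as did B2m, the light chain of MHC class I, at 26.8, 48.4 and 65.0 CPM. These genes were picked after their values were seen.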
